A study of Drosophila melanogaster with 4 samples.

Results

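The genes described here are 40 genes of Drosophila melanogaster that are listed under a CG number, the running number a predicted gene receives when the fly genome is annotated, and whose transcripts were far scarcer in heads with activated Yorkie than in control heads. They were chosen on these counts. A gene belonged if the lower of its 2 control values was at least 5 CPM, that is, counts scaled to library totals of 1e6, and at least 3 times the higher of its 2 yki S168A values. Of 7484 CG-numbered symbols in the tables, 3336 reached 5 CPM in both control libraries, and 40 of these (1.20%) met the limits. Among the other symbols at 5 CPM or more in both control libraries, 74 of 4446 (1.66%) met the same limits, and under the mirrored limits 135 CG-numbered symbols were raised. Because the contrast between the groups chose the genes, their levels below are a description, and no test is given for them.

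RNA came from whole adult heads, 30 per library. The control heads carried the driver GMR-Gal4 alone (2 libraries), and the others carried it together with yki S168A (GMR>yki S168A, 2 libraries), in tissue the series calls tumor. GMR-Gal4 is active mainly in the developing eye, so brain, fat body, muscle and cuticle of the head were sampled along with cells that carried the transgene. Insertion, stock background and Yorkie activity cannot be told apart in this design, and the sources used here give neither sex nor age of the flies. No label ties a library to its own cross, so the p-values cover the spread between these samples alone, which may be technical. In whole heads, fewer cells of a type and less RNA per cell cannot be told apart.

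Yorkie is the transcriptional co-activator held in check by the Hippo pathway. The kinase Warts phosphorylates it and keeps it out of the nucleus, and the replaced serine is one of the sites it uses. Active Yorkie, bound to the DNA-binding protein Scalloped, raises genes for growth and survival, and it overgrows the eye when expressed there. A CG number carries no statement of function: some of these genes have since been named from later work, others belong to known protein families, and many have no assigned role.

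The library totals ran from 15738860 to 18108814 counts, and a floor of 3 counts is 0.166 to 0.191 CPM. The 40 genes together took 2342 and 2369 CPM of the control libraries and 468 and 465 CPM of the yki S168A libraries. The 5 most counted of them, CG16791, CG4933, CG42369, CG13830 and CG10621, held 60.7% of that control sum. All 40 passed the low-count filter of edgeR's quasi-likelihood test, and 40 of 40 were called lower at an adjusted p below 0.05, beside 12.5% of all 10896 tested genes called lower and 15.1% called higher; the limits used the same contrast, so nothing is read from that count. With upper-quartile scaling 1924 genes were lower and 1276 higher in place of 1359 and 1647, and the median log2 fold change of all tested genes moved from 0.01 to −0.15.

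**Figure D1:**
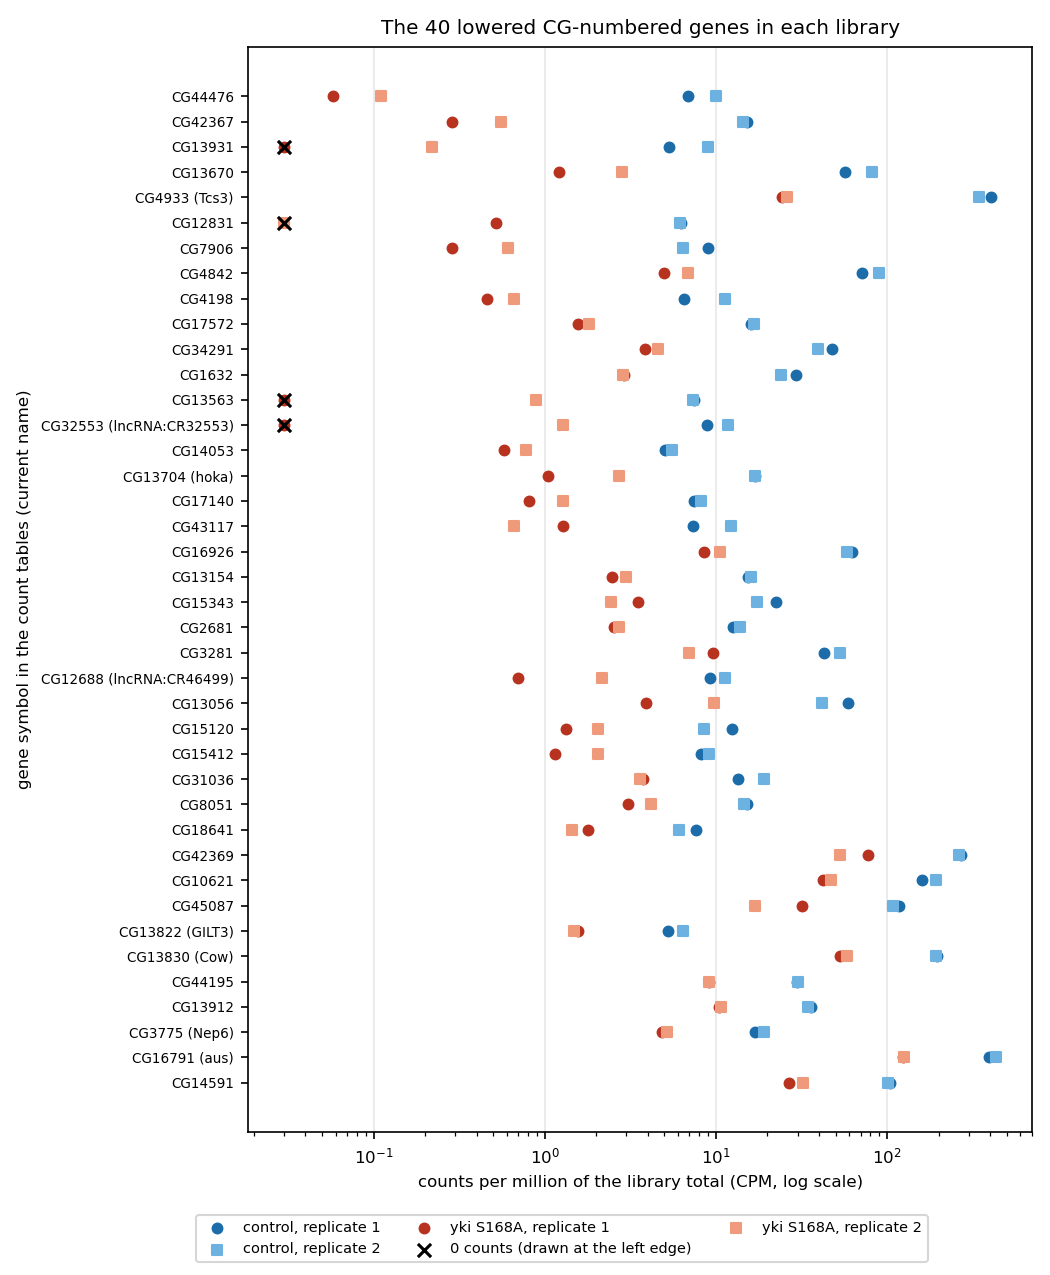
Level of each of the 40 genes in each of the 4 libraries, in CPM on a log scale. Blue marks are the control libraries, red and orange marks the yki S168A libraries, and crosses at the left edge mark libraries with 0 counts. Genes run from the largest ratio of the lowest control to the highest yki S168A value at the top (61.9 for CG44476) to the smallest at the bottom (3.16 for CG14591).

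The ratio of the lowest control to the highest yki S168A value ran from 3.16 to 61.9 with a median of 5.07. It was at least 4 for 26 genes, at least 5 for 20 and at least 10 for 8. Just inside the limit stood CG3775 (ratio 3.24), CG16791 (3.16) and CG14591 (3.16). Just outside it stood CG3104 (2.9988), CG13607 (2.97) and CG10962 (2.97), so the limit cuts a continuous range. CG3104, for example, was at 124 and 126 CPM in control and 33.5 and 41.4 CPM in yki S168A heads, close to CG14591 at 104 and 102 CPM in control and 26.7 and 32.2 CPM in yki S168A heads.

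**Figure D2:**
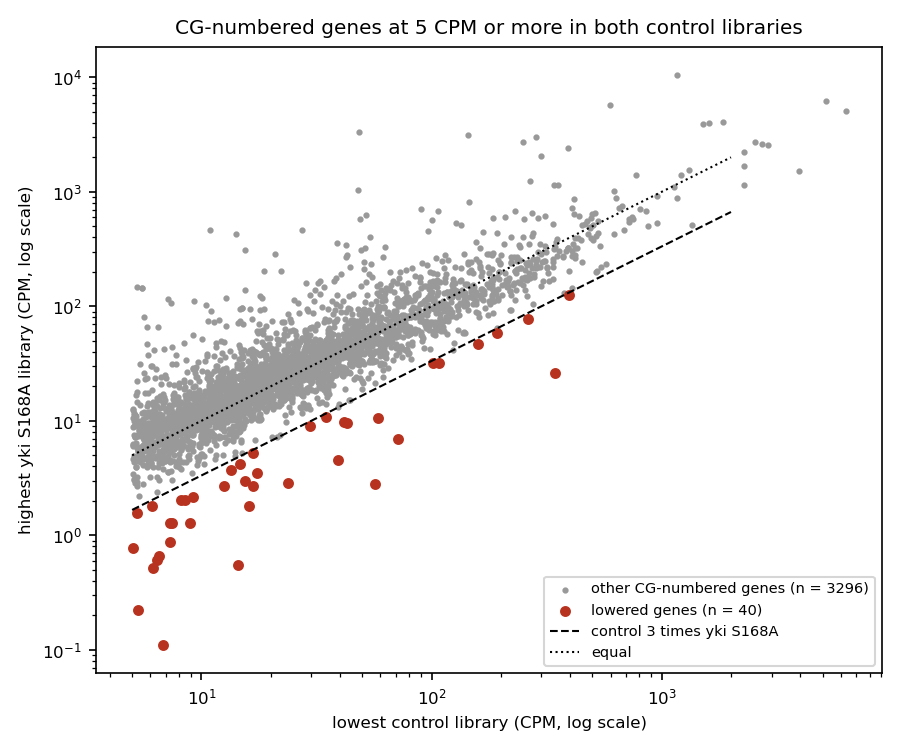
Each point is a CG-numbered gene at 5 CPM or more in both control libraries, placed by its lowest control value (x axis) and its highest yki S168A value (y axis), both in CPM on log scales. Red points are the 40 lowered genes below the dashed line, where control is 3 times yki S168A; they lie at the lower edge of the continuous cloud of the other 3296 genes, with control levels from 5 to 396 CPM.

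Cuticle proteins, serine protease homologs and long noncoding RNAs were represented by 2 genes each, 12 further genes stood alone in their class, and 22 genes had no class assigned. Classes come from the names and synonyms in RefSeq or from textbook knowledge, since no protein sequences were used here.

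CG13670 and CG42367 encode cuticle proteins of the family that binds chitin, the polysaccharide of the insect exoskeleton and of the corneal lens. CG13670 (FBgn0035873, chromosome 3L, 8320763 to 8322280, plus strand, build dm6) was at 56.7 and 81.9 CPM with the driver alone and at 1.21 and 2.82 CPM in yki S168A heads. The mean was 34.4 ± 21.3-fold lower (propagated SD, n = 2 each), and 57.1-fold lower without yki S168A replicate 2. CG42367, on chromosome 2L, was at 15.1 and 14.4 CPM in control and at 0.289 and 0.552 CPM in yki S168A heads, 35.1 ± 15.6-fold lower. In both genes the control and yki S168A libraries lay far apart, and yki S168A replicate 1 was the lower of its group.

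CG4842, CG10621, CG18641, CG13822 and CG4933 encode enzymes, each of a different kind. CG4842 (FBgn0036620, chromosome 3L, 16368389 to 16369518) is a short-chain dehydrogenase, the family of the retinol-oxidizing Pdh of eye pigment cells. It was at 71.2 and 89.7 CPM in control and at 4.97 and 6.90 CPM in yki S168A heads, 13.6 ± 3.83-fold lower. CG4933 (FBgn0283681, chromosome 3L, 16351991 to 16353286), now named Tcs3, belongs to the complex that modifies adenosine in tRNAs. It was at 406 and 343 CPM in control and at 24.4 and 26.01 CPM in yki S168A heads, 14.9 ± 1.89-fold lower. Per kilobase of exon CG4933 had the highest control level of the 40 genes, 318 CPM per kb, ahead of CG42369 at 191 and CG34291 at 163 CPM per kb. The other enzyme genes lay nearer the limit. CG10621, a homocysteine S-methyltransferase gene, was at 159 and 194 CPM in control and at 42.3 and 46.9 CPM in yki S168A heads, 3.96 ± 0.626-fold lower. The lipase gene CG18641 stood at 7.67 and 6.10 CPM in control and at 1.79 and 1.44 CPM in yki S168A heads. CG13822, now GILT3, a thiol reductase of the kind found in lysosomes, was at 5.23 and 6.42 CPM in control and at 1.56 and 1.49 CPM in yki S168A heads. The yki S168A libraries of GILT3 were nearly equal.

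CG17572 and CG1632 are listed in RefSeq as the serine protease homologs SPH64 and SPH198, proteins built like proteases. CG17572, on chromosome 2L, was at 16.1 and 16.8 CPM in control and at 1.56 and 1.82 CPM in yki S168A heads, 9.72 ± 1.10-fold lower. CG1632, on the X chromosome, was at 29.6 and 23.9 CPM in control and at 2.89 and 2.87 CPM in yki S168A heads, 9.28 ± 1.39-fold lower. CG3775, now Nep6, a metallopeptidase of the neprilysin family that cleaves peptides at the cell surface, was at 16.8 and 19.2 CPM in control and at 4.85 and 5.19 CPM in yki S168A heads. Replicates of these 3 genes lay close together in yki S168A heads. In control heads those of CG1632 lay farther apart than those of CG17572 and Nep6.

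Transporters and membrane or secreted proteins made another loose group. CG8051 belongs to the monocarboxylate transporter family, which carries lactate, pyruvate and related acids across membranes, and was at 15.1 and 14.7 CPM in control and at 3.06 and 4.20 CPM in yki S168A heads. CG17140 belongs to the family of porins, channels of the outer mitochondrial membrane, and was at 7.43 and 8.13 CPM in control and at 0.809 and 1.27 CPM in yki S168A heads. CG13704, now hoka, encodes a small protein of smooth septate junctions, described in gut and renal tubule epithelia. It was at 16.9 and 16.8 CPM in control and at 1.04 and 2.71 CPM in yki S168A heads, 9.02 ± 5.67-fold lower, and 16.2-fold lower without yki S168A replicate 2. CG13830, now Cow, a secreted heparan sulfate proteoglycan that carries the Wingless signal, was at 197 and 193 CPM in control and at 53.1 and 58.2 CPM in yki S168A heads, 3.50 ± 0.235-fold lower. The replicates of Cow differed little in either group, while yki S168A replicate 1 of hoka lay well below replicate 2.

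CG3281 is the one zinc finger gene assigned here, a likely DNA-binding protein of the fly-expanded family with an additional zinc-binding domain. It was at 43.0 and 52.8 CPM in control and at 9.65 and 6.96 CPM in yki S168A heads, 5.77 ± 1.56-fold lower. The 2 symbols that are noncoding in current annotation both lie on the X chromosome. CG32553, now lncRNA:CR32553, was at 8.92 and 11.8 CPM in control, at 0 counts in yki S168A replicate 1, which allows up to 0.173 CPM, and at 1.27 CPM in replicate 2. Its mean was 16.3-fold lower, and 8.16-fold lower without yki S168A replicate 1. CG12688, now part of lncRNA:CR46499, was at 9.22 and 11.3 CPM in control and at 0.693 and 2.15 CPM in yki S168A heads. Its mean was 7.21-fold lower, 4.77-fold without yki S168A replicate 1 and 14.8-fold without yki S168A replicate 2.

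The largest fall of all was that of CG44476 (FBgn0265669, chromosome 2L, 18112830 to 18113179, minus strand), a gene of unknown function with a predicted product of 77 residues. Its level of 6.84 and 10.04 CPM in control heads compares with 0.0578 and 0.110 CPM, a mere 1 and 2 counts, in yki S168A heads. On summed counts CG44476 was 99.0-fold lower, with an exact 95% counting interval of 33.5 to 483. That interval leaves out the spread between libraries. It also leaves out that these same counts chose the gene, so it is a description and no test. CG13931 went from 89 and 141 control counts to 0 and 4 counts in yki S168A heads, 64.5-fold lower, and 32.3-fold lower without yki S168A replicate 1. CG12831 went from 105 and 97 control counts to 9 and 0 counts in yki S168A heads, 23.9-fold lower, and 11.9-fold lower without yki S168A replicate 2. In these genes the size of the fall rests on a handful of yki S168A counts. CG13563 likewise went from 7.43 and 7.31 CPM in control to 0 and 0.884 CPM in yki S168A heads, 16.7-fold lower, and 8.34-fold lower without yki S168A replicate 1. No gene of the 40 was at 0 in both yki S168A libraries, and 4 were at 0 in one of them.

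Other genes with no assigned class covered a wide range of folds. CG7906 was at 8.98 and 6.42 CPM in control and at 0.289 and 0.607 CPM in yki S168A heads, 17.2-fold lower, and 26.7-fold lower without yki S168A replicate 2. CG14053 was at 5.05 and 5.53 CPM in control and at 0.578 and 0.773 CPM in yki S168A heads. CG2681 was at 12.5 and 13.9 CPM in control and at 2.54 and 2.71 CPM in yki S168A heads. All 4 libraries of CG2681 lay close to their group means. CG13154 was at 15.5 and 16.1 CPM in control and at 2.48 and 2.98 CPM in yki S168A heads. CG43117, with a predicted product of 75 residues, was at 7.31 and 12.3 CPM in control and at 1.27 and 0.663 CPM in yki S168A heads, so here yki S168A replicate 2 was the lower. CG16791, now aus, had the highest mean control level in CPM of the 40 genes. It was at 396 and 435 in control and 124 and 125 in yki S168A heads, 3.34 ± 0.225-fold lower. CG42369, which lies within the span of the adhesion gene DIP-epsilon, was at 271 and 263 CPM in control and at 77.4 and 53.2 CPM in yki S168A heads. CG15412 was at 8.15 and 9.15 CPM in control and at 1.16 and 2.04 CPM in yki S168A heads. CG13912 was at 35.7 and 34.8 CPM in control and at 10.4 and 10.7 CPM in yki S168A heads, with hardly any spread in either group. The genes CG15412, CG31036, CG42369, CG44195 and CG13912, had ratios of the lowest control to the highest yki S168A value from 3.24 for CG13912 to 3.99 for CG15412.

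Predicted products were set beside those of the CG-numbered genes at a like control level. The median over the 38 protein-coding genes was 331.5 residues, beside 398 over 3331 CG-numbered genes at 5 CPM or more in both control libraries, and 8 of 38 were under 150 residues, beside 13.2%. These short products were those of CG44476, CG42367, CG34291 (61 residues), hoka (136), CG43117, CG16926 (127), CG13056 (99) and CG45087 (27). Under 200 residues there were 10 of 38, beside 20.1%, also near the share of the larger set. These values are a description of 38 genes and no difference in length was tested. The 40 genes were spread over the genome, with 9 on X, 9 on 3L, 8 on 2L, 7 on 2R and 7 on 3R, which is 0.861% (3R) to 1.49% (X) of the CG-numbered genes at 5 CPM or more on each chromosome arm.

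Replicates within a group did not choose the genes, since the limits treat them alike. Of the 40 genes, 29 were higher in yki S168A replicate 2 than in replicate 1, beside 51.1% of the 3336 CG-numbered genes at 5 CPM or more in control. Between the control libraries, 21 of the 40 were higher in replicate 2, beside 48.7%. The largest gaps between the yki S168A libraries among genes above 20 counts in both were those of CG13056, with 68 and 177 counts, and CG13670, with 21 and 51 counts.

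Some of the genes lay near each other, but how many such pairs other CG-numbered genes form was not counted. In 6 pairs the gene bodies lay within 50 kb of each other, and 3 of these pairs came from a single stretch of chromosome 3L that also holds retinin, the gene for a main protein of the corneal lens. Among others it carries, from left to right, retinin, CG13056 (FBgn0040794, chromosome 3L, 16333313 to 16333782), CG4933, Pdh and CG4842. CG13056 begins 524 bases beyond retinin on the same strand and was at 59.3 and 41.7 CPM in control and at 3.93 and 9.77 CPM in yki S168A heads, 7.38-fold lower, and 12.9-fold lower without yki S168A replicate 2. retinin, which the CG limits could not choose, fell from 6860 and 5675 CPM in control to 23.3 and 33.4 CPM in yki S168A heads (log2 fold change −7.68 ± 0.30 SE, edgeR adjusted p = 3.65e-08). Pdh fell from 1011 and 878 CPM to 44.8 and 52.0 CPM (log2 fold change −4.18 ± 0.17, edgeR adjusted p = 5.83e-08).

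Genes interspersed with them did not move alike. Between CG13056 and CG4933, the mitochondrial ribosomal gene mRpS34 was at 16.4 and 16.1 CPM in control and at 18.6 and 16.2 CPM in yki S168A heads (edgeR adjusted p = 0.540). CG4925, now Golgin104, which lies 40 bases from CG4933, was at 14.2 and 11.6 CPM in control and at 15.7 and 13.2 CPM in yki S168A heads (edgeR adjusted p = 0.471). Cpr72Ec, a cuticle protein gene 1049 bases from CG4842, rose from 29.0 and 29.4 CPM to 63.7 and 169 CPM (log2 fold change 2.10 ± 0.34, edgeR adjusted p = 0.000977), and without yki S168A replicate 2 its log2 fold change was 1.25. On the far side of CG4842, roq was at 40.02 and 45.9 CPM in control and at 42.7 and 49.3 CPM in yki S168A heads (edgeR adjusted p = 0.404).

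**Figure D3:**
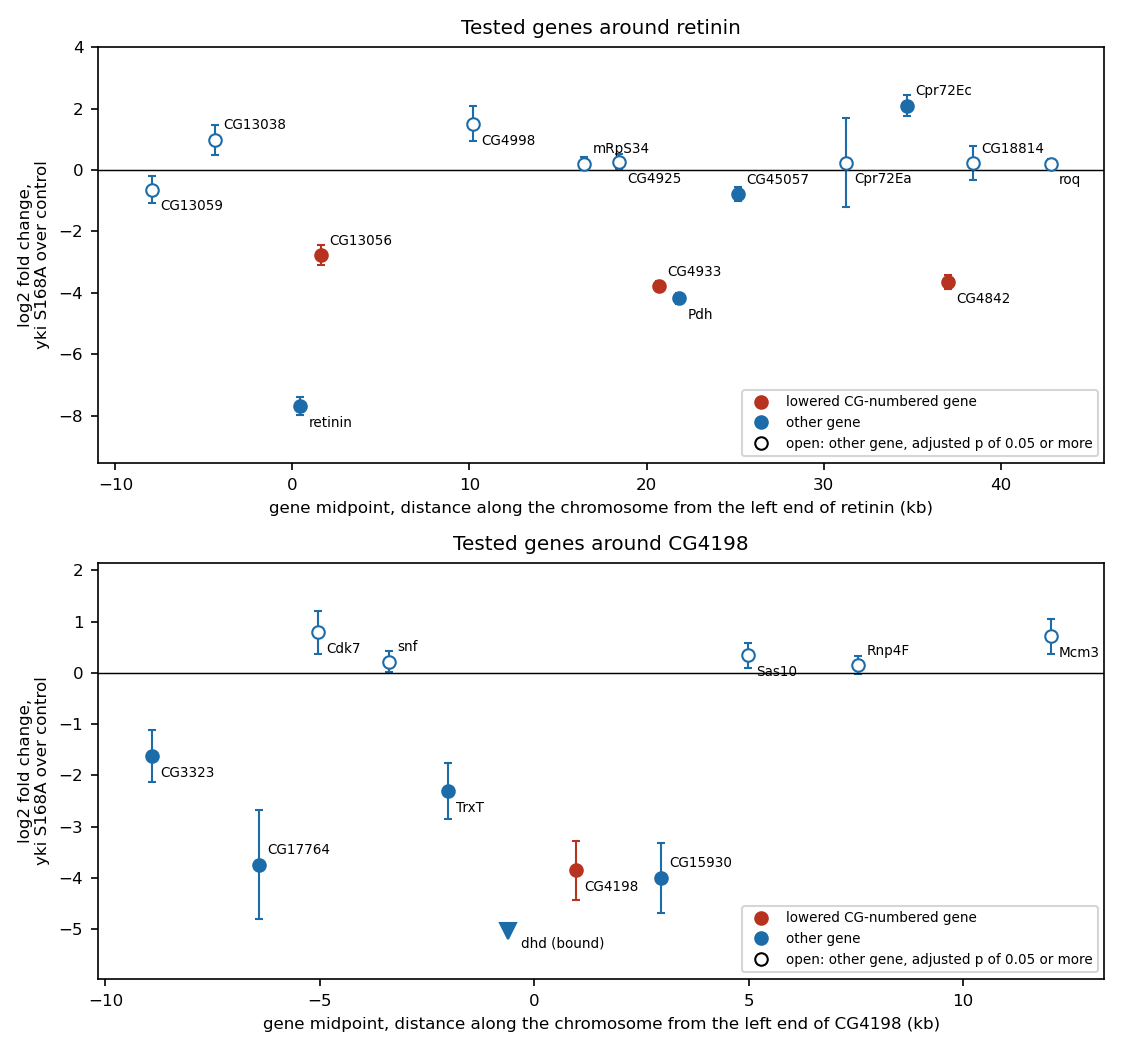
Log2 fold change of yki S168A over control (y axis, error bars are SE from edgeR) for the tested genes around retinin (upper panel) and around CG4198 (lower panel), by the distance of the gene's midpoint from the left end of the named gene in kb (x axis). Red points are the lowered CG-numbered genes, blue points other genes, open where the adjusted p was 0.05 or more, and the triangle for dhd is a bound because both yki S168A libraries had 0 counts. In both stretches low genes lie among genes near 0, and Cpr72Ec lies at 2.10.

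A second stretch with several low genes surrounds CG4198 on the X chromosome (FBgn0029753, 5313258 to 5315190, plus strand). CG4198 was at 6.54 and 11.3 CPM in control and at 0.462 and 0.663 CPM in yki S168A heads, 15.9 ± 7.21-fold lower. Of 11 tested genes within 10 kb of it, 5 were called lower and 0 higher, beside 12.5% and 15.1% of all tested genes. Among the 5 is CG15930, whose shared exonic bases make its call not independent of the limits. CG15930, which shares 61 exonic bases with CG4198 on the other strand, fell from 4.04 and 5.91 CPM to 0.231 and 0.331 CPM (log2 fold change −3.99 ± 0.68, edgeR adjusted p = 0.00120). dhd, a thioredoxin gene needed in the female germ line, had 32 and 145 counts in control and 0 counts in both yki S168A libraries, at least 32.8-fold lower against a floor of 3 counts per library (edgeR adjusted p = 0.00627). The bound for dhd was 11.2-fold without control replicate 2 (adjusted p = 0.0402) and 54.4-fold without control replicate 1. Its neighbor TrxT, the thioredoxin gene of the testis, fell from 4.99 and 4.07 CPM to 0.809 and 0.884 CPM (log2 fold change −2.30 ± 0.54, edgeR adjusted p = 0.00883), which did not pass with control replicate 1 left out (adjusted p = 0.0835).

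Beyond these, CG17764 and CG3323 were lower as well (edgeR adjusted p = 0.0199 and 0.0327), but neither passed without control replicate 1 (adjusted p = 0.0864 and 0.0942), control replicate 2 (0.154 and 0.179) or yki S168A replicate 1 (0.108 and 0.128). The splicing factor gene snf, in the same stretch, was at 21.1 and 27.4 CPM in control and at 23.9 and 28.3 CPM in yki S168A heads (edgeR adjusted p = 0.492). Lists of ovary and male reproductive genes were low in all libraries: 9 ovary genes summed to 5.11 and 6.10 CPM in control and 3.29 and 5.80 CPM in yki S168A heads with 0 of 3 tested members lower and 1 higher, and 8 male reproductive genes summed to 0.297 and 1.59 CPM in control and 0.751 and 0.387 CPM in yki S168A heads, with Mst84Db at 0 in all libraries. The higher ovary gene was the eggshell gene Cp16, at 0 in both control libraries and at 0.982 and 2.98 CPM in yki S168A heads (edgeR adjusted p = 0.0117). The ovary sums hide unlike members. The untested vas, bam, dec-1, Vm26Aa and Cp36, at most 0.951 CPM in control, were at 0 in both yki S168A libraries. Nearly all of the ovary sums in yki S168A heads came from nos, Vm34Ca and Cp16.

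The other 3 pairs within 50 kb were shorter in reach. CG1632 and CG15343 meet tail to tail on X and share 139 exonic bases on opposite strands, 22.3% of the exonic bases of CG15343 being shared with other genes in all. CG15343 was at 22.4 and 17.5 CPM in control and at 3.52 and 2.43 CPM in yki S168A heads, and like CG1632 it was lower in control replicate 2 than in replicate 1. CG16926 and CG15120 share 78 exonic bases on opposite strands of chromosome 2R, next to the Hippo kinase gene hpo. hpo was not called, at 12.0 and 9.40 CPM in control and at 10.2 and 12.1 CPM in yki S168A heads (edgeR adjusted p = 0.690). CG16926 was at 62.0 and 58.3 CPM in control and at 8.49 and 10.5 CPM in yki S168A heads, 6.32 ± 1.003-fold lower. CG15120 was at 12.5 and 8.51 CPM in control and at 1.33 and 2.04 CPM in yki S168A heads, 6.23 ± 2.50-fold lower. CG34291 and CG43117 lie 29013 bases apart on chromosome 3R.

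Overlap with other genes limits what some of these counts measure, since the sources used here do not say whether strand was used in counting. Of the 40 genes, 18 share exonic bases with another annotated gene, 13 of them with genes on the opposite strand alone, and 5 share over 20% of their exonic bases. Without those 5, chosen after seeing the data, 35 genes remain. The 11 tested genes that are not among the 40 and share exonic bases with one of them were all called lower (VGlut not without control replicate 1, adjusted p = 0.194, or control replicate 2, 0.0823), and since reads in the overlap may have been counted for either gene, that count is not independent of the limits.

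CG45087 is the clearest case. It is an upstream open reading frame of 27 residues in the transcript of Pepck1, listed in the tables as Pepck, the rate-limiting enzyme gene of gluconeogenesis, and current annotation gives both the same exons. CG45087 was at 117 and 108 CPM in control and at 31.8 and 17.0 CPM in yki S168A heads, 4.61 ± 2.00-fold lower, and Pepck itself at 1598 and 1678 CPM in control and at 308 and 424 CPM in yki S168A heads (log2 fold change −2.05 ± 0.19, edgeR adjusted p = 1.33e-05). The ranking of the yki S168A libraries was opposite in the 2 symbols. CG17140 and its neighbor CG17139 likewise share all exonic bases, and CG17139 fell from 4.88 and 5.46 CPM to 0.635 and 0.221 CPM (log2 fold change −3.48 ± 0.63, edgeR adjusted p = 0.00185), with a log2 fold change of −4.41 without yki S168A replicate 1 and −2.89 without replicate 2. CG44195 shares 95.5% of its exonic bases with Ank2, the gene of a giant ankyrin of neurons. It was at 29.6 and 30.1 CPM in control and at 9.07 and 9.06 CPM in yki S168A heads, and Ank2 fell from 431 and 480 CPM to 164 and 178 CPM (log2 fold change −1.30 ± 0.14, edgeR adjusted p = 5.57e-05).

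On the opposite strand, CG34291 shares 50.6% of its exonic bases with CR31084. CG34291 was at 47.7 and 39.4 CPM in control and at 3.87 and 4.58 CPM in yki S168A heads, 10.3 ± 1.85-fold lower, and CR31084 fell from 30.9 and 24.6 CPM to 1.21 and 2.26 CPM (log2 fold change −3.87 ± 0.33, edgeR adjusted p = 9.1e-06). CG3281 overlaps the 3′ end of the heat shock gene Hsp70Ab by 27 bases, 1.44% of its exonic bases. Hsp70Ab fell from 1339 and 1653 CPM to 209 and 167 CPM (log2 fold change −2.88 ± 0.19, edgeR adjusted p = 1.35e-06), and Hsp70Aa carried the same counts in every library, so the 2 are not separate measurements. In CG3281 and in Hsp70Ab alike, the highest library was control replicate 2 and the lowest yki S168A replicate 2. CG4933 shares 4.58% of its exonic bases with Pdh on the other strand. CG13912 shares 10.9% with Trh, a tryptophan hydroxylase gene of serotonin synthesis, which was at 25.7 and 19.1 CPM in control and at 5.31 and 12.0 CPM in yki S168A heads (edgeR adjusted p = 0.0154, and 0.0896 without control replicate 1 or 0.0537 without yki S168A replicate 1). The log2 fold change of Trh was −1.26, and −1.95 without yki S168A replicate 2. For CG13563, 3.30% of the exonic bases lie opposite the channel gene ppk29, which was at 5.59 and 5.02 CPM in control and at 0.347 and 1.71 CPM in yki S168A heads (edgeR adjusted p = 0.0144, and 0.0529 without control replicate 1 or 0.0656 without yki S168A replicate 1). The log2 fold change of ppk29 was −2.23, from −1.54 without yki S168A replicate 1 to −3.79 without replicate 2. How far reads of such partners entered the counts of these genes was not tested.

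**Figure D4:**
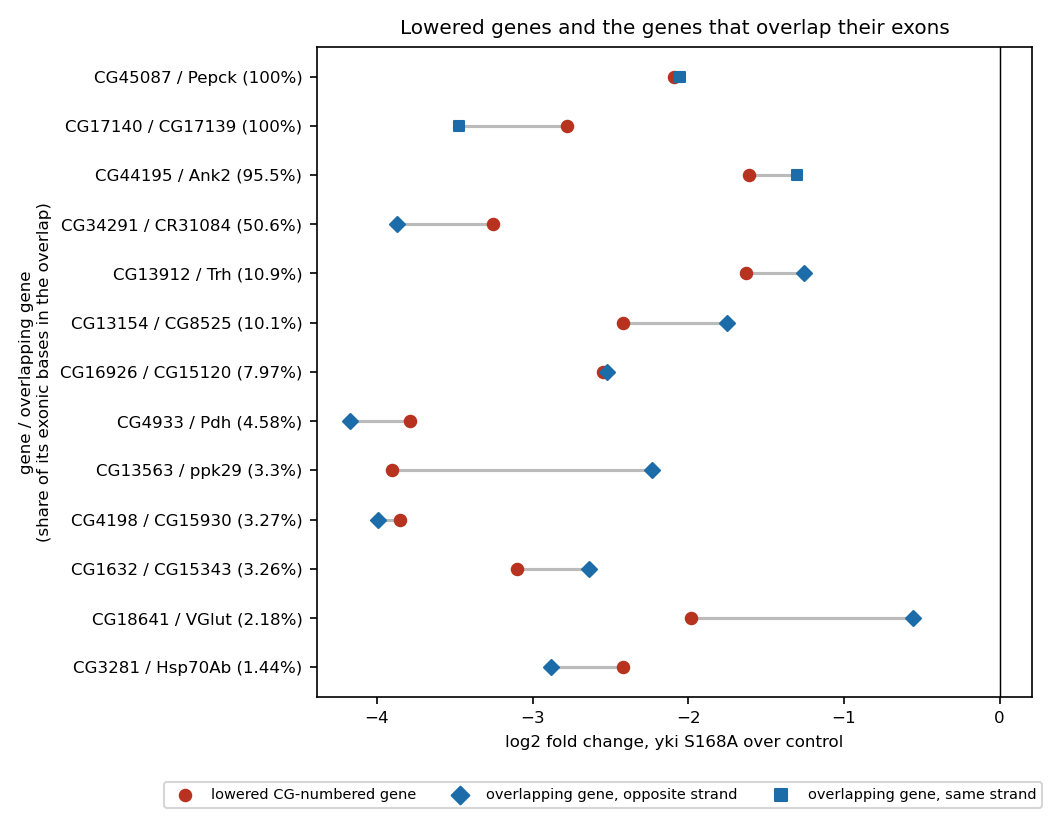
Log2 fold change of yki S168A over control for lowered genes (red circles) and for a gene that shares exonic bases with each (blue, diamonds on the opposite strand, squares on the same strand), with the share of the lowered gene's exonic bases in the overlap given beside each pair. Every point lies left of 0, and the overlapping genes run from −0.55 for VGlut to −4.18 for Pdh. Overlapping genes that were not tested are left out, and 2 lowered genes that overlap are drawn as 1 pair.

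Tested genes that share no exonic base with the 40 but lie within 10 kb of one were examined next, because the limits did not choose them. Of 152 such neighbors, 28 (18.4%) were called lower and 15 (9.87%) higher, beside 12.5% and 15.1% of all tested genes, and their median log2 fold change was −0.04. Without control replicate 1 the lower count was 16 of 155, and without control replicate 2 it was 15 of 155. Over all tested genes the calls fell likewise, from 3006 to 1634 and 1696. Of 57 neighbors closer than 2 kb, 14 were lower and 5 higher, and of 95 farther away, 14 were lower and 10 higher. The 28 include Hsp70Aa.

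Photoreceptor genes stood among the lower neighbors. norpA, the phospholipase C of phototransduction, lies 7863 bases from CG12688 and fell from 2032 and 2121 CPM to 564 and 650 CPM (log2 fold change −1.67 ± 0.17, edgeR adjusted p = 3.23e-05). The light-gated channel gene trp lies 1629 bases from CG31036 and fell from 720 and 754 CPM to 228 and 227 CPM (log2 fold change −1.59 ± 0.15, edgeR adjusted p = 1.4e-05). CG31036 itself was at 13.5 and 19.1 CPM in control and at 3.75 and 3.59 CPM in yki S168A heads. Mct1, a monocarboxylate transporter gene in which CG14053 lies on the opposite strand without shared exons, fell from 144 and 158 CPM to 45.7 and 41.2 CPM (log2 fold change −1.69 ± 0.15, edgeR adjusted p = 1.22e-05). Pdf, the neuropeptide gene of the circadian clock neurons, lies 350 bases from CG43117 and fell from 23.7 and 27.2 CPM to 9.30 and 11.2 CPM (log2 fold change −1.20 ± 0.23, edgeR adjusted p = 0.00248).

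Other neighbors went up beside a lowered gene. The gene out, a monocarboxylate transporter relative needed for germ cell survival, lies 2588 bases from its family member CG8051 and rose from 11.9 and 12.7 CPM to 60.0 and 63.2 CPM (log2 fold change 2.43 ± 0.18, edgeR adjusted p = 2.54e-06). CG8034, 3168 bases from CG8051, fell from 118 and 120 CPM to 54.2 and 76.8 CPM (log2 fold change −0.75 ± 0.17, edgeR adjusted p = 0.00734), so these neighboring genes did not share a direction. Around Cow, 3 of 6 tested neighbors were higher and 0 lower, one of the 3 being sav, a Hippo pathway adaptor gene whose call (edgeR adjusted p = 0.0118) did not pass without control replicate 2 (0.0779) or yki S168A replicate 1 (0.0517). Of all tested genes, 15.1% were called higher. Among the 3 near Cow, CG17111 rose from 62.3 and 58.2 CPM to 150 and 152 CPM (log2 fold change 1.43 ± 0.14, edgeR adjusted p = 2.4e-05). Near CG13563, tsr, the cofilin gene, rose from 145 and 129 CPM to 339 and 315 CPM (log2 fold change 1.36 ± 0.14, edgeR adjusted p = 4e-05).

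CG13563 also lies 8376 bases from yki itself, whose transgene-derived and resident reads cannot be separated. yki was at 12.9 and 19.1 CPM in control and at 30.7 and 26.5 CPM in yki S168A heads (log2 fold change 0.95 ± 0.23, edgeR adjusted p = 0.0112, and 0.138 without control replicate 1). Between them RpL12 stood at a log2 fold change of −0.05 (edgeR adjusted p = 0.857) and Rap2l at 0.17 (adjusted p = 0.578).

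**Figure D5:**
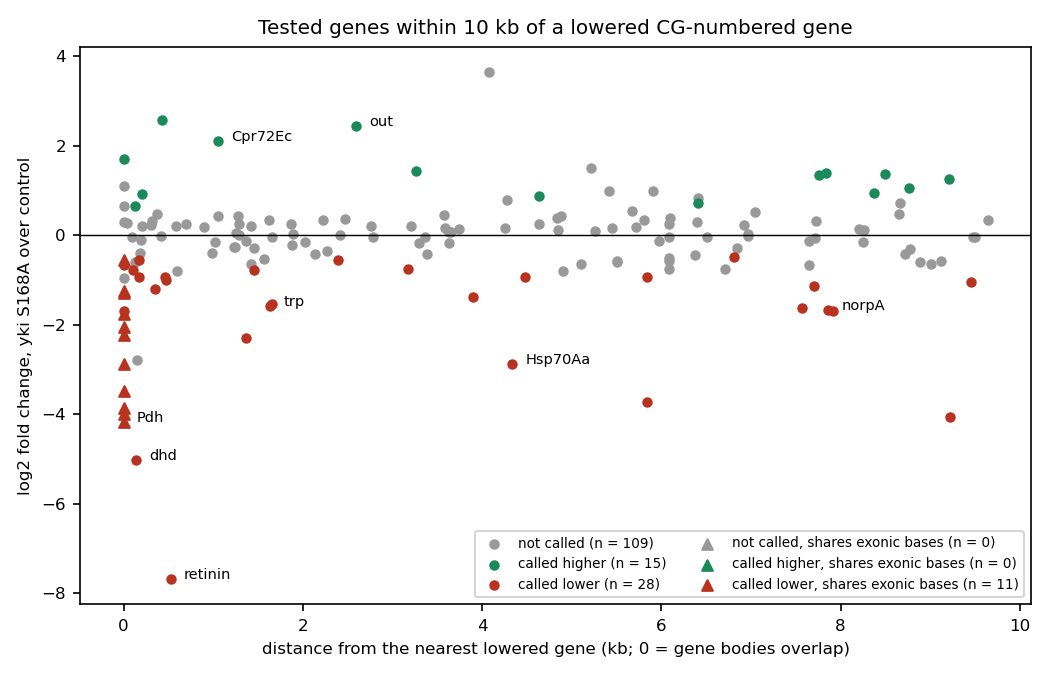
Log2 fold change of yki S168A over control (y axis) for tested genes within 10 kb of a lowered gene, by distance from the nearest one in kb (x axis). Circles share no exonic base with a lowered gene and triangles do; red marks genes called lower, green called higher and gray not called, and dhd is drawn at its bound. The 28 lower and 15 higher circles are spread over the whole distance, and the 11 triangles are all lower.

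Some lists of cell type markers and of stress genes moved between the groups along with these genes, and others did not. Of all tested genes, 12.5% were called lower and 15.1% higher. The 25 photoreceptor genes summed to 16841 and 16662 CPM in control and to 4986 and 5598 CPM in yki S168A heads, with 21 of 25 lower and 1 higher. Most fat body genes were lower too (9 of 12 tested members lower, 0 higher), and so were small heat shock genes (7 of 7 lower) and neuronal genes (9 of 12 lower, 0 higher). The 9 fat body genes include Yp1, Yp2, Yp3 and fit, whose levels depend on sex, which is not given. The fat body genes Lsp2, bmm and Mtp were not called (edgeR adjusted p = 0.0728, 0.895 and 0.241). Among 11 tested genes of lens and pigment cells, 6 were lower and 4 higher. Glial genes (0 of 9 lower, 1 higher) and muscle genes (0 of 11 called) were not called lower, and 2 of 7 hemocyte genes were. Midgut genes were near 0, with 10 genes summing to at most 1.21 CPM in any library. The part of any cell type in the falls of the 40 genes was not tested.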

How the data were processed

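The deposited tables hold whole-number read counts per gene symbol, per the file headers; a Lexogen SENSE mRNA kit was used and a service company ran the analysis, per the labels' protocols. Per the submitters' processing notes the build is dm6. The aligner, counter, annotation and strand setting: not given in the sources used here. Lines with the same symbol were summed (16509 lines, 16489 symbols), and 16361 symbols (99.2%), all 40 members included, were matched through current or older names to the Ensembl release 115 annotation of dm6 and RefSeq. Levels (CPM) are counts over the library total, times 1e6.

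Groups were compared in edgeR 4.0.16 (R 4.3.3; filterByExpr, TMM, estimateDisp, glmQLFit with legacy off, glmQLFTest) over all 10896 tested genes, with Benjamini-Hochberg adjustment at 0.05, after checking on simulated counts. Each SE is the size of the log2 fold change divided by √F. DESeq2 1.42.0 was an alternative.

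Members, marker lists and alternatives were chosen with earlier results of these data known; CG14207 and CG10663 were left out by rule. Values are given for the 25 members with the largest ratio of lowest control to highest yki S168A value, for members near each other or at the limit, and, chosen after their values were seen, for further members by class, overlap or neighbor. Protein comparisons and promoter motifs, planned at the start, were not run because no sequences were used here; classes rest on names and background knowledge.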

Additional observations from a re-analysis of the deposited data

How the results depend on the processing

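The number of lowered genes was 36 with TMM-scaled and 45 with upper-quartile-scaled CPM; TMM dropped CG14053, CG14591, CG16791 and CG44195. It was 133 with a fold limit of 2, 26 with a limit of 4, 51 and 25 with control minimums of 3 and 10 CPM, and 60 to 80 with one library left out, where a limit on fewer libraries is easier to meet. Of 236 recomputed folds of the 40 genes 0 turned direction and 10, in 9 genes, moved by over 1.5 times. For 4 genes, CG12831, CG13563, CG13931 and CG32553, the fold has no value when only the yki S168A library at 0 counts is kept. Calls over all genes numbered 2636 to 3200 under other scalings, filters and tools, the legacy fit (added after seeing the data) and DESeq2 included, and 1634 to 3123 with one library left out; lower neighbors numbered 26 to 33 and 15 to 30. Within 5 kb 19 of 91 tested neighbors were lower and 8 higher, and within 20 kb 40 and 35 of 272. Over all tested genes 12.5% were lower and 15.1% higher. Of 594 recomputed values of called neighbors 64 lost the call and 0 turned direction. With a replicate block 3626 genes and 31 lower neighbors were called. Deviations of same-numbered libraries correlated at 0.0227 across genes. That value gives no sign that the numbers pair the samples, but with 2 libraries a group it cannot exclude pairing. With 2 libraries a group, genes near 5 CPM have few counts in yki S168A heads, and floors cover counting error only.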
